A study of Mus musculus with 4 samples.

Results

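The map of contacts of the H19 imprinting control region (ICR) in undifferentiated mouse embryonic stem (ES) cells was read from 2 arrays, out of 4 samples in the whole series. They were chosen by their labels as the ES samples, and no value was used to choose them. Both held DNA of the ES cell line R1, with no treatment named in the labels, and each was a pool of 3 independent samples. The other samples were embryoid bodies and are not analysed here. Circular chromosome conformation capture (4C) joins DNA ends that lie close together in the nucleus and amplifies whatever was joined to a chosen bait, here the H19 ICR. On each array the Cy5 dye carried the 4C product, and the Cy3 dye carried the input, which was ES genomic DNA cut with MboI. Per the series' design text, the array was built from places that an earlier 4C screen had favoured, in a pool that included ES cells. Shares of probes therefore describe these selected places and not the genome. R1 is a single cell line, and the signal is not assigned to the maternal or paternal chromosome. The 2 ES arrays were scanned on different days, so that scan and replicate cannot be told apart.

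The H19 ICR is a short stretch of DNA near the H19 gene that is methylated on the paternal chromosome and unmethylated on the maternal one. The insulator protein CTCF binds the unmethylated copy and keeps enhancers from acting on Igf2, a growth factor gene. H19, a long non-coding RNA, is therefore expressed from the maternal chromosome and Igf2 from the paternal one. Contacts on the bait's own chromosome are called cis and those with other chromosomes trans. In RefSeq's table for GRCm38, a later build than the mm6 coordinates used here, Nctc1, Mrpl23, Tnnt3 and Lsp1 precede H19 on the centromere side, and Igf2, Ins2, Th and Ascl2 follow it on the telomere side. That table was used for gene order only. Sites are given by their mm6 positions without gene names, because an mm6 annotation was not used here.

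The tiling probes covered 388069 positions. Of these, 344020 lay in 26 large tiled regions of at least 800000 bp, 39835 in 97 small regions and 4214 carried no region label. Chromosome 7, which holds the bait, had 81492 probes, 26974 of them in its most distal large region (136488552 to 138655803). The other 20 chromosomes had 306577 probes. 4C signal is given as log2 Cy5 intensity minus the median of the array's tiling probes. A probe was positive at 1 log2 unit or more, which is 2-fold over that median. A run was at least 3 adjacent positive probes whose starts lay at most 300 bp apart. On ES replicate 1, 1.53% of all probes were positive and 0.634% lay in runs, and on ES replicate 2, 2.09% and 0.859%. Of the 1193 random control probes, 0.503% and 0.335% were positive on the same arrays.

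At 92 positions the array carried a labelled and an unlabelled spot, which gave a check within each array. The 4C signals of such spots correlated with r = 0.962 on ES replicate 1 and 0.993 on ES replicate 2, across spots of one array that share its DNA. Both spots fell on the same side of the 2-fold level at 82 and 91 of the 92 positions. The median difference within a pair was 0.25 and 0.17 log2 units.

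Runs found on one array were then read on the other, which had no part in finding them. Each of the 237 runs of ES replicate 1 had a median of at least 1 log2 unit on ES replicate 2, and 99.3% of its run probes were positive there, against 2.09% of all probes. This held on chromosome 7 (210 of 210 runs) and on the other chromosomes (27 of 27 runs). In the reverse direction 202 of the 273 runs of ES replicate 2 had such a median on ES replicate 1, and 80.1% of their probes were positive, against 1.53% of all probes. Of the runs of ES replicate 2 outside chromosome 7, 34 of 52 passed on ES replicate 1. The contacts of ES replicate 1 were thus nearly all present on ES replicate 2, which also showed runs below the 2-fold level on ES replicate 1. The shared probes made up 98.9% of the run probes of ES replicate 1 and 73.0% of those of ES replicate 2.

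Sites were defined as runs made up solely of probes past the 2-fold level on both arrays. Such probes made up 0.92% of all probes, and the 239 sites held 0.627% of all probes. Of these, 199 lay in the distal region of chromosome 7, 13 elsewhere on chromosome 7 and 27 on 11 other chromosomes. The sites were short, with a median of 362 bp in the distal region (102 to 3785 bp) and 390 bp on other chromosomes (250 to 1432 bp). Sites of the distal region covered 106894 bp in all.

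The site with the most probes (93) ran from 136997915 to 137001699 on chromosome 7. It served as the point from which distance was counted, since no source used here gives the bait's coordinates. Distances are signed, negative towards the centromere. Its median 4C signal was 5.74 log2 units on ES replicate 1 and 5.32 on ES replicate 2. The highest value the scanner returned lay 6.08 and 5.43 log2 units above the array medians, and 71.0% and 94.6% of the site's probes lay within 2-fold of it. Part of its signal thus lay near the upper end of the scale. Beside it, from 136992893 to 136995242 (65 probes), the medians were 5.79 and 5.32. From 136995285 to 136997567 (50 probes) they were 5.43 and 5.33. These 3 sites lay next to each other. A site of 58 probes from 137029024 to 137032574 had 4.61 and 5.35, and its input was also bright, at 2.73 and 2.20 log2 units over the array median. A site of 52 probes from 136978409 to 136980380 had 3.52 and 5.17, with input of 0.44 and 0.31.

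Between 10 and 2000 kb from this point, the share of probes in runs fell with distance on both arrays, though not at every step. Within 10 kb, 60.0% of the probes lay in runs on ES replicate 1 and 75.2% on ES replicate 2. The point was chosen as the site with the most probes, so a high share this close was given by that choice. From 10 to 20 kb the shares were 40.3% and 48.0%, and from 20 to 50 kb 30.5% and 40.4%. They were 16.0% and 19.004% from 50 to 100 kb, and 14.5% and 19.6% from 100 to 200 kb. Further out the shares were 7.498% and 9.88% from 200 to 500 kb, 2.64% and 4.01% from 500 to 1000 kb, and 2.14% and 3.05% from 1000 to 2000 kb. From 2000 to 5000 kb they were higher again on both arrays, at 3.45% and 6.19% of 695 probes. Of these probes, 145 carried no region label, and 15.2% and 22.1% of those lay in runs. The mix of labelled and unlabelled probes thus changed between bins, so that no rise with distance can be read. It also changed along the fall: 80 of 452 probes from 10 to 20 kb carried no label, and 31 of 7135 from 500 to 1000 kb. Unlabelled probes within 2 Mb lay in runs at 41.6% and 51.8%, against 7.29% and 9.67% of labelled probes of the distal region. How far this mix shapes the fall and its slope was not tested. From 5 to 20 Mb the share was 0.0424% on each array, and from 20 to 50 Mb 0.584% on each. Beyond 50 Mb the shares were 0.0259% and 0.0283%. Within each array the share fell between the bins of 10 to 20 and 20 to 50 kb. It also fell on each array between those of 500 to 1000 and 1000 to 2000 kb. Between the bins of 50 to 100 and 100 to 200 kb it fell on ES replicate 1 and rose on ES replicate 2. In all these pairs of bins the values of the 2 arrays overlapped, and the steps were not tested. On a log-log scale between 10 and 2000 kb the share fell with a slope of -0.67 and -0.63, a mean of -0.65 ± 0.030 (SD, n = 2). Of the run probes on chromosome 7, 44.8% ± 1.68 lay within 100 kb, 81.6% ± 1.42 within 500 kb and 97.9% ± 0.124 within 2 Mb (SD, n = 2). Their median distance was 117 kb on ES replicate 1 and 126 kb on ES replicate 2. These distances depend on the array, which tiled densely here only from -511 kb to 1656 kb.

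**Figure D1:**
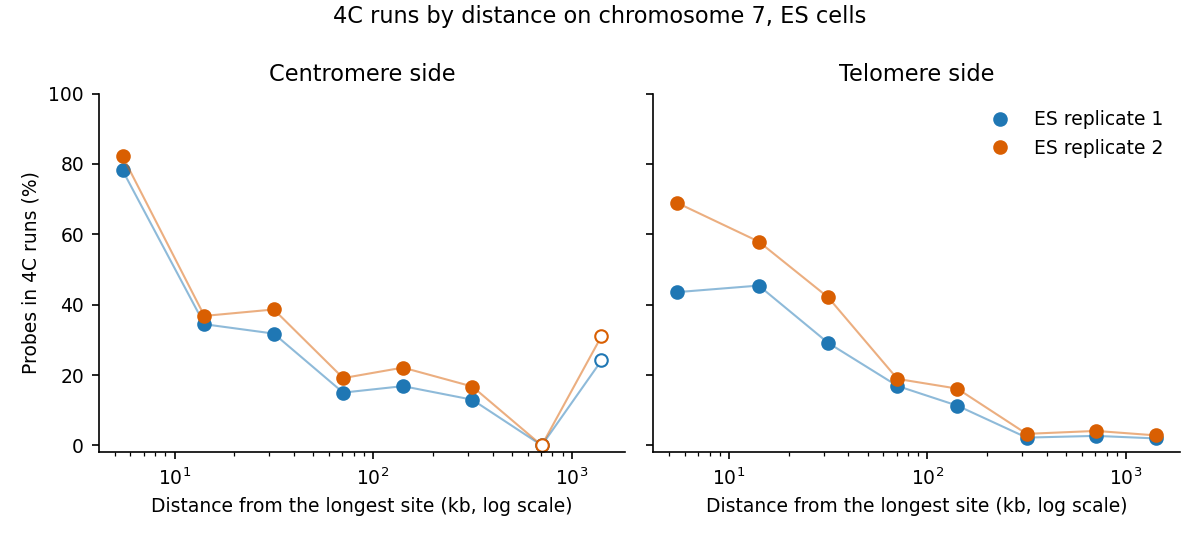
Share of probes in 4C runs (y axis, percent) against distance from the longest site (x axis, kb, log scale) on the centromere side and the telomere side of chromosome 7, 1 line for each ES array. Points stand at the geometric middle of each bin (the nearest bin counted from 3 kb), and open points are bins of under 200 probes. The fall is not steady on either side: shares rise from 50 to 100 kb (15.0% and 19.1%) to 100 to 200 kb (16.8% and 22.1%) on the centromere side, and on the telomere side from 200 to 500 kb (2.22% and 3.28%) to 500 to 1000 kb (2.70% and 4.11%).

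The signal within runs is given as a description, since it was read on different probes, chosen for being past the 2-fold level. Probes in runs had median 4C signals of 5.42 and 5.15 log2 units within 10 kb on ES replicates 1 and 2. From 20 to 50 kb these were 2.92 and 4.09, and from 200 to 500 kb 3.14 and 3.81. From 1000 to 2000 kb they were 4.37 and 4.86. Within 10 kb, 56.9% and 70.7% of run probes lay within 2-fold of the scanner's highest value, and from 1000 to 2000 kb 30.6% and 55.4%, so that no trend in signal can be read. Sites per 1000 probes went from 24.3 at 20 to 50 kb to 9.12 at 200 to 500 kb and 2.65 at 1000 to 2000 kb. Over all runs, 26.7% of run probes on ES replicate 1 and 49.4% on ES replicate 2 lay within 2-fold of the scanner's highest value.

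The fall was then read on each side of the reference point. Within 10 kb, 78.1% and 82.1% of the probes lay in runs on the centromere side and 43.5% and 69.0% on the telomere side. The reference point is not known to be the bait. It moved by up to -24.8 kb under other settings (by -4.58 kb without ES replicate 1), so that no order of the sides can be read that close. From 50 to 100 kb the sides were alike, at 17.1% ± 2.92 and 17.9% ± 1.42 (SD, n = 2). From 200 to 500 kb the centromere side held 14.9% ± 2.65 and the telomere side 2.75% ± 0.751 (SD, n = 2), and the arrays of one side did not overlap those of the other. This difference was not tested, since runs were chosen on the values they describe. The slope was -0.10 ± 0.024 on the centromere side, over 6 bins that ended with a thinly probed stretch beyond 1 Mb, and -0.74 ± 0.024 on the telomere side, over 7 bins (SD, n = 2). The centromere side's densely tiled part ended at -511 kb, and its bin from 500 to 1000 kb held 177 probes and no run. Of its 58 probes from 1000 to 2000 kb, all without a region label, 24.1% and 31.0% lay in runs, so that its slope is not comparable with the other side's.

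**Figure D2:**
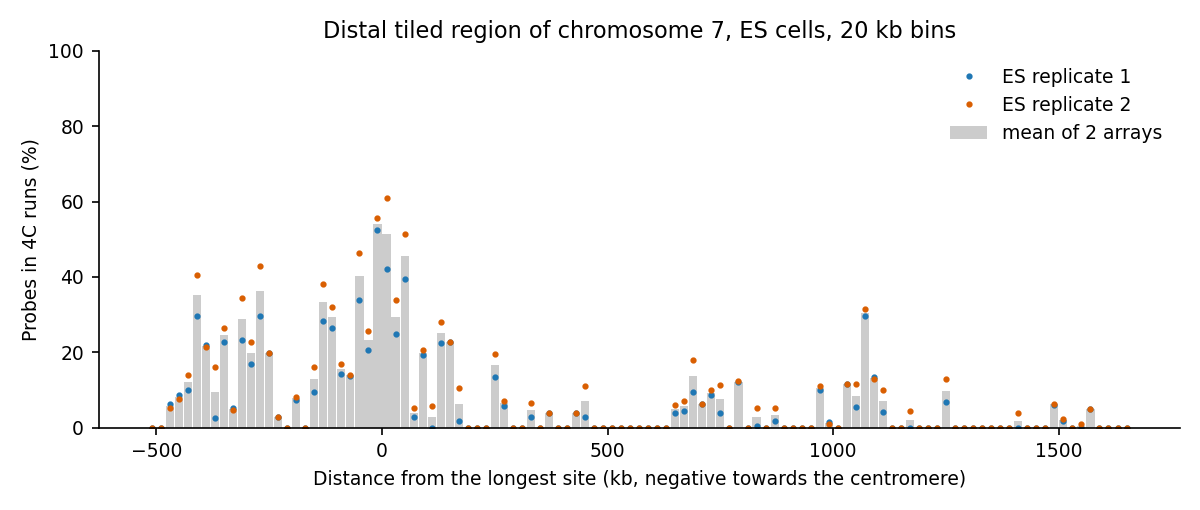
Share of probes in 4C runs (y axis, percent) in 20 kb bins of the distal tiled region against distance from the longest site (x axis, kb), with grey bars for the mean of 2 ES arrays and points for each array. Signal is densest around the reference point. High density there was given by choosing that point as the site with the most probes. Signal extends to about -475 kb, and beyond 500 kb is gathered in islands with empty stretches between.

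On the telomere side the contacts formed islands. Sites under 100 kb apart were joined into neighbourhoods, of which the distal region held 5. The first ran from -475 to 441 kb and held 163 of the 199 sites. The sites at both its ends had 4C below input on both arrays. Their log2 ratios, centred on the array median, were -3.61 and -2.61 at -475 kb, and -1.61 and -0.56 at 441 kb. No run was seen on either array from 453 to 643 kb, a gap of 190.4 kb tiled with 2608 probes. The next neighbourhood, from 643 to 868 kb, held 16 sites, with median signals of 2.298 and 3.80 log2 units on ES replicates 1 and 2. Its site at 835 kb also had 4C below input on both arrays, with centred ratios of -2.16 and -1.13. The neighbourhood from 977 to 1119 kb held 13 sites with medians of 4.45 and 5.30, and 10.5% ± 0.838 of the probes from 1000 to 1100 kb lay in runs (SD, n = 2). After it came 3 sites from 1251 to 1259 kb, with medians of 1.29 and 2.29, and a run-free gap of 145.6 kb. The last neighbourhood, from 1482 to 1577 kb, had 4 sites with medians of 4.96 and 5.36. Its outermost site, from 138576457 to 138576974 (15 probes), had 3.97 and 5.39 log2 units and input of 0.55 and -0.45. The islands' levels come from different probes, some near the scanner's limit, and were not ranked.

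Part of the centromere side carried unusually bright input. Between -475 and -283 kb lay 18 sites whose input was at least 4 log2 units over the array median on both arrays. They held 3 to 21 probes each, and their middles were a median of 10.3 kb apart (0.317 to 22.9 kb). Their input medians were 6.43 and 4.62 log2 units on ES replicates 1 and 2, and their 4C medians 3.97 and 3.37. The ratio of 4C to input, centred on the array median, lay below 0 on both arrays at all 18, with medians of -1.93 and -0.88. The outermost of them, from 136524882 to 136525139, had 4C signals of 2.74 and 1.55 and input of 6.28 and 4.44. Of the 239 sites, 50 were higher on ES replicate 1, and 16 of these 18 were among them.

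The share of such probes in runs differed between parts of the array. Of the 122 probes with input of at least 4 log2 units within this stretch, 87.7% and 86.1% lay in runs on ES replicates 1 and 2, against 10.1% and 15.5% of its other probes. The stretch was bounded by sites chosen as runs with such input, so a high share there was given by that choice. Counted one by one, 94.3% and 95.9% of the 122 were positive. Of 70 such probes in the rest of the distal region, 15.7% lay in runs on each array, against 7.65% and 10.1% of the others. Of the 70, 37.1% and 54.3% were positive. Of 210 such probes on the rest of chromosome 7, 0% lay in runs on either array, although 29.5% and 39.5% were positive singly. On the other chromosomes, 0.752% and 0.957% of 1463 such probes lay in runs, against 0.0436% and 0.0865% of the others. Of the 1463, 31.4% and 39.6% were positive. A run needs adjacent positive probes, so shares in runs also depend on how bright probes are spaced, which was not tested. Without probes whose input averaged 2 log2 units or more over the median, the share in runs from 200 to 500 kb was 10.1% ± 3.36 on the centromere side and 2.48% ± 0.730 on the telomere side (SD, n = 2). The part of the bright input in these sites' 4C signal was not tested. A site of 43 probes starting at 136747664, which lay at -251 kb and thus beside the stretch, had 5.84 and 5.33 log2 units of 4C over input of 0.28 and -0.78. It was chosen after its values were seen.

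**Figure D3:**
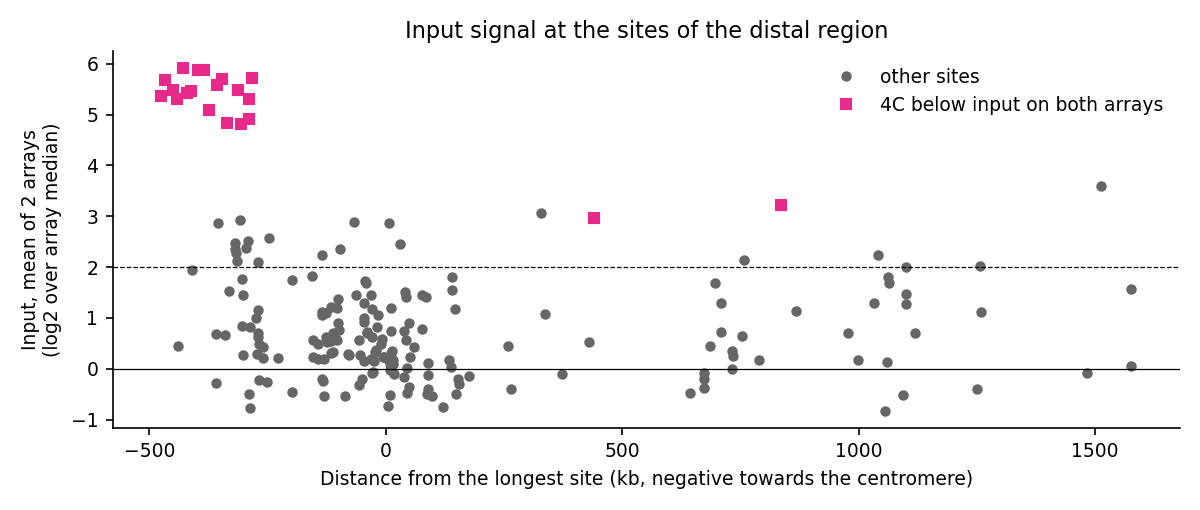
Input signal of each site of the distal region (y axis, site median averaged over 2 ES arrays, log2 over the array median) against distance from the longest site (x axis, kb). The dashed line marks 2 log2 units; squares are sites with 4C below input on both arrays, of which 18 lie between -475 and -283 kb.

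Beyond the distal region, contacts on chromosome 7 were few. The 3 other large regions of the chromosome, with 49050 probes, held 2 run probes on each array. Of the 13 sites outside the distal region, 10 fell on probes without a region label. Among loci of at least 3 such probes, 44 of 83 within 2 Mb (the distal region included) held a site, 4 of 22 from 2 to 5 Mb, and 3 of 19 beyond 5 Mb.

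The farthest cis site of at least 6 probes lay at -27.6 Mb, from 109352070 to 109353119 (7 probes). Its 4C signal was 4.79 and 5.43 log2 units on ES replicates 1 and 2, with input of -0.04 and -0.28. A site at -4.69 Mb, starting at 132310617 (7 probes), had 1.97 and 4.21. At 2.43 Mb on the telomere side, from 139425860 (7 probes), the values were 1.51 and 3.75. Neighbouring sites at -1.83 Mb, starting at 135165465 and 135166265, had 1.60 and 4.20, and 2.24 and 3.86. The other 4 of these sites were all higher on ES replicate 2 by 1.62 to 2.61 log2 units. Sites also lay at -84.3, -104.1 and -117.1 Mb, with 3 to 5 probes each.

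**Figure D4:**
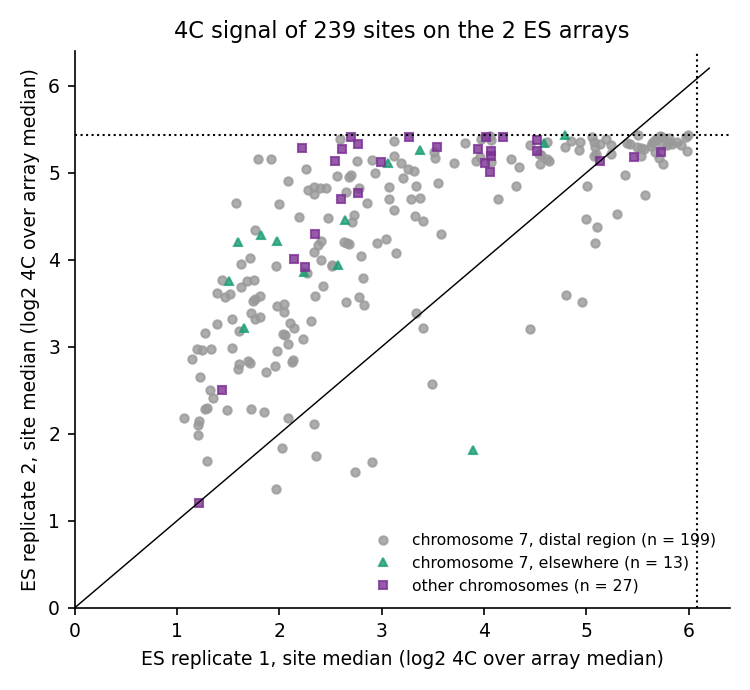
Median 4C signal of each of 239 sites (log2 over the array median) on ES replicate 1 (x axis) and ES replicate 2 (y axis), by place. The solid line marks equal values and the dotted lines the scanner's upper limit at 6.08 and 5.43; most sites lie above the line, and sites of other chromosomes (n = 27) overlap those of chromosome 7.

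In trans, 0.0470% of the probes on ES replicate 1 and 0.0907% on ES replicate 2 lay in runs, a mean of 0.0688% ± 0.0309 (SD, n = 2). In the distal region of chromosome 7 the share was 8.48% ± 1.69. The 27 trans sites formed 25 neighbourhoods on 11 chromosomes. Chromosome 12 had 7 sites, chromosome 1 had 4, and chromosomes 11, 14 and 19 had 3 each. Chromosome 15 had 2, and chromosomes 5, 8, 9, 16 and 18 had 1 each. The chromosomes were tiled unequally, so these counts were not ranked. Chromosome 12 had 27835 probes, chromosome 1 had 1596, chromosome 11 had 27798, chromosome 14 had 11183 and chromosome 19 had 10342. On chromosome 12, 3 of the sites lay in 1 large region of 26404 probes. Without ES replicate 1 the trans sites numbered 52, and with probes called by the ratio of 4C to input 370. The remaining 9 chromosomes with probes had none, among them chromosome 6 and the X chromosome with their large tiled regions.

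Of the 27 trans sites, 22 lay on probes without a region label. Among unlabelled loci of at least 3 probes outside chromosome 7, 24 of 184 (13.0%) held a site, and 24 and 41 held a run on ES replicates 1 and 2. On chromosome 7 beyond 5 Mb, 3 of 19 (15.8%) did. The difference was not tested. Of the 22 large regions of other chromosomes 3 had a site, and of their 87 small regions none did, where 35398 probes held 0 and 3 run probes on ES replicates 1 and 2.

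The median 4C signals of trans sites had a median of 3.26 log2 units on ES replicate 1 (1.21 to 5.73) and 5.19 on ES replicate 2 (1.20 to 5.41), and those of the distal region were 2.78 and 4.501. Both sets were chosen for passing the 2-fold level and were read on different probes, so they were not ranked. The input medians of the trans sites, 0.26 and -0.27, lay close to the array median. On ES replicate 2, 22 of the 27 had at least 50% of their probes within 2-fold of the scanner's limit, so that differences among them cannot be read there.

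Chromosome 12 held the trans site with the most probes (12), which started at 37126182 and had 2.997 and 5.13 log2 units. The chromosome 1 site from 146641255 to 146641904 (6 probes) had 4.52 and 5.38, and its input lay below the median at -0.33 and -0.92. The site of chromosome 16 from 42998706 (6 probes) had 4.07 and 5.19, also over dim input. The chromosome 14 site, at 69359036 in a large tiled region (7 probes), had 4.01 and 5.11. Every site lies past the 2-fold level on both arrays by definition, and the levels given here were not ranked. The site of chromosome 19 from 31803497 (6 probes) had 4.02 and 5.41, and that of chromosome 9 from 52604285 (4 probes) had 4.18 and 5.41. The chromosome 11 site at 78734153 (4 probes) had 4.07 and 5.25, over input of 2.26 and 0.87. The chromosome 5 site at 103216248 (4 probes) had 3.54 and 5.29. The sites of chromosome 18 from 52382929 (7 probes) and of chromosome 8 from 8760111 (4 probes) had 2.54 and 5.13, and 2.70 and 5.41.

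A site of chromosome 15 stood apart. From 73003638 to 73004370 (11 probes) its 4C signal was 1.21 and 1.20 log2 units, just past the threshold, over input of 6.78 and 5.65. Its centred ratios of 4C to input were -5.53 and -4.41. The ratios were above 0 on both arrays at the other 26 trans sites, and at least 1 log2 unit on both arrays at 24 of the 27.

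**Figure D5:**
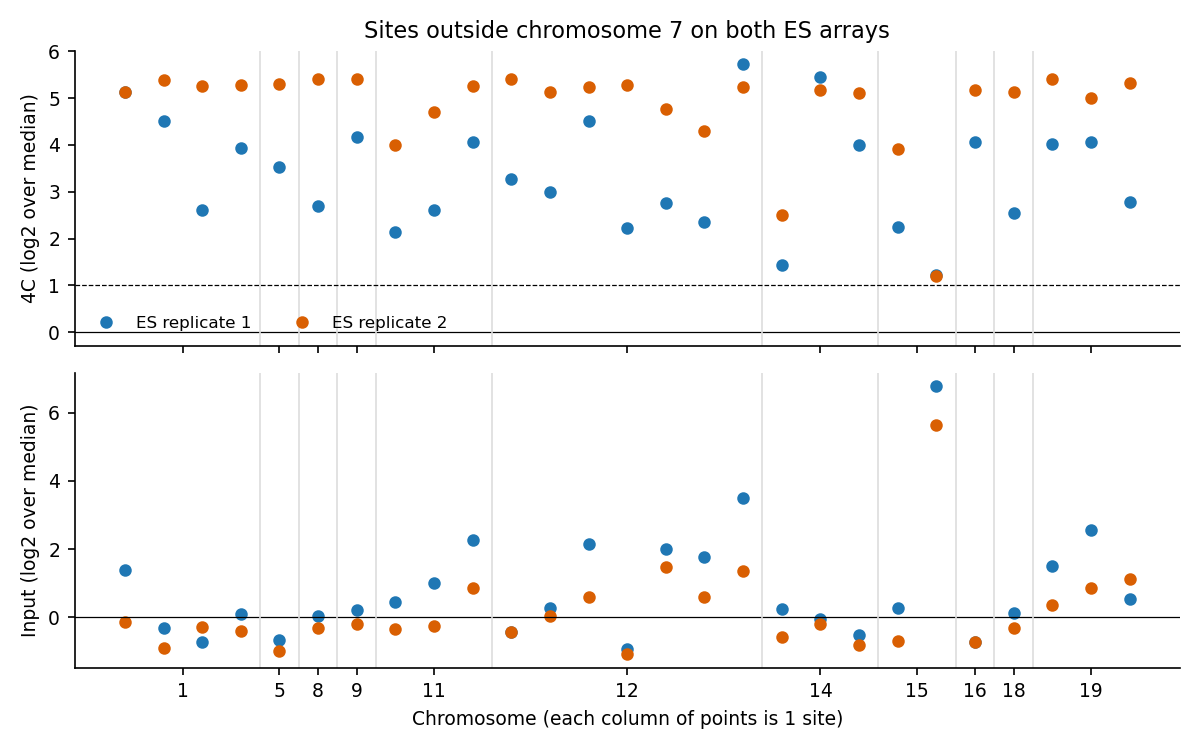
4C signal (upper panel) and input (lower panel) of the 27 sites outside chromosome 7, as site medians in log2 over the array median (y axes), ordered by chromosome (x axis), 1 column for each site and 1 colour for each ES array. A site on chromosome 15 has the lowest 4C signal on both arrays (1.21 and 1.20) and the brightest input (6.78 and 5.65); a site on chromosome 14 has 4C of 1.44 on ES replicate 1, and a site on chromosome 12 has input of 3.50 there.

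Windows of 10 kb were tested against the array median with limma over the 2 ES arrays. By 4C signal, 11 of 3785 windows (0.291%) were called above the median and 0 below (Benjamini-Hochberg adjusted p under 0.05; at an unadjusted p under 0.05, 219 and 165). Since a window's median moves only when most of its probes carry signal, this test reaches few contacts. The window from 136990001 on chromosome 7 (225 probes) had 5.51 and 5.22 log2 units, a mean of 5.37 ± 0.073 (moderated SE, limma adjusted p = 0.000195). That from 109350001 on chromosome 7 (8 probes) had 4.68 and 5.24 (limma adjusted p = 0.0026). Limma's moderated SE borrows spread from all windows and is not the SE of the 2 arrays alone. In trans, the windows from 41960001 on chromosome 14 (5 probes; 5.46 and 5.18; limma adjusted p = 0.000195) and from 146640001 on chromosome 1 (6 probes; 4.52 and 5.38; limma adjusted p = 0.012) passed. So did that from 31800001 on chromosome 19 (6 probes; 4.02 and 5.41; limma adjusted p = 0.040). With robust eBayes 25 windows were called above, but none of these 5 was among them (limma adjusted p from 0.24 to 0.42), and 4 of the 11 were. The calls of these 5 windows therefore depend on this setting. The scanner's upper limits lay at 6.08 and 5.43 log2 units on ES replicates 1 and 2, near several of these values. How far these limits narrow the spread between arrays, and so the SE and p, was not tested.

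By the ratio of 4C to input, 1007 windows (26.6%) were called above the array median and 964 (25.5%) below. After loess within arrays 11 and 0 were called. Of the 1007, 96.2% had dim input (below the median on both arrays), against 44.2% of all windows. Only 38 had a mean of at least 1 log2 unit. Across windows the ratio correlated with input at r = -0.882 and -0.760 on ES replicates 1 and 2, while the 4C signal correlated with it at 0.099 and 0.076. These are correlations across windows of one array, which share its DNA. The ratio subtracts log2 input, so its negative correlation with input is in part built in. So is the dim input of windows called above. The windows with the highest ratios were nonetheless places of strong 4C signal. They started at 146640001 on chromosome 1 (5.54 ± 0.31), 42990001 on chromosome 16 (5.35 ± 0.27), 109350001 on chromosome 7 (5.26 ± 0.21), 41960001 on chromosome 14 (4.75 ± 0.40) and 136990001 on chromosome 7 (4.73 ± 0.22). Values are the mean log2 ratio over 2 arrays ± limma's moderated SE. Their limma adjusted p ran from 0.0014 to 0.0042. With robust eBayes the window on chromosome 14 lost its call (limma adjusted p = 0.089).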

How the data were processed

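The values used were scanner intensity per probe in both channels of the 2 ES arrays, extracted by the authors with NimbleScan 2.3.78 (ES replicate 1) and 2.3.18 (ES replicate 2), per the file headers. Background correction and normalization before deposit are not given in the sources used here. The 1193 random control spots were left out, and 97 repeated spots were averaged into 1 value per position. Channels were matched by X and Y. Log2 values were centred on each array's tiling median. Window medians (10 kb, at least 5 probes) were tested with limma 3.58.1 (R 4.3.3), intercept only, two-sided. Such a test was checked on simulated windows: of planted shifts of 1 log2 unit it recovered 62.0% by ratio and 94.0% by 4C signal (3785 windows). The planted shifts moved whole window medians, with spreads shuffled among windows and no scanner limit. These rates therefore do not give the recovery of sites much shorter than a window. Runs, sites and distances were described without a test, using Python 3.11.15. Named sites were those with the most probes by place, and named windows the 5 highest called. The members, thresholds and lists were chosen with earlier results of these data known. Replicates were pools of 3 independent samples. Alternatives changed the threshold, run length, gap, measure, background correction, normalization, window size, dim or bright input, reference point and arrays used. The embryoid body arrays were not used. The number of arrays limits the precision.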

Additional observations from a re-analysis of the deposited data

How the results depend on the processing

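No paired analysis was possible because 1 group of arrays was described and no groups were compared. Without either array the limma tests could not be fitted, since no spread was left. Leaving out 1 array gave 210 to 221 sites on chromosome 7 and 27 to 52 on other chromosomes, 52 of them without ES replicate 1. It gave 7.29% to 9.67% of distal probes in runs, 0.0470% to 0.0907% of trans probes, median distances of 117 to 125 kb and slopes of -0.67 in both cases. The slope stayed between -0.62 and -0.69 under the 12 alternatives run for it.

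Reading positive probes from the ratio of 4C to input raised trans sites to 370 and the trans share to 1.98%, with a median cis distance of 755 kb and shares at 200 to 500 kb of 9.41% (centromere side) and 3.62% (telomere side). With normexp the distal share was 11.9%, the trans share 0.665%, trans sites 66, the median distance 160.9 kb, the slope -0.62 and the shares at 200 to 500 kb 21.3% and 5.37%. With a 4-fold threshold the distal share was 6.50% and the centromere share 10.5%. Runs of at least 5 probes left 12 trans sites and a median distance of 112 kb. Without bright input, chosen after seeing the data, the median distance was 107 kb, the slope -0.69 and the centromere share 10.1%. With 1 dim probe bridged, also chosen after seeing the data, the trans share was 0.112%. Distances from the densest 50 kb bin had a median of 111 kb. The centromere side stayed above the telomere side at 200 to 500 kb in each alternative.

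Windows called above and below by ratio were 1874 and 1917 at 5 kb, 564 and 499 at 20 kb, 110 and 1903 without dim input, and 11 and 0 with loess (172 and 174 at an unadjusted limma p under 0.05). Windows called above by 4C signal were 3 at 20 kb, 62 with normexp, 22 without dim input, 25 with robust eBayes and 38 with quantile normalization, and 7 were called below with normexp and with robust eBayes. The 25 windows of robust eBayes had means of at most 0.78 log2 units and shared 4 with the 11, while the 5 named by 4C signal lost their calls. Loess, run on the 4C signal after seeing the data, called 925 above and 1035 below, the 11 among the former; it adjusts both channels and so brings the input into the 4C values. The cause of the other differences was not tested. Signal at the scanner's limit hides differences among the brightest sites.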

Other observations

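Positive probes outside runs numbered 3475 on ES replicate 1 and 4763 on ES replicate 2, and 25.3% and 23.5% of them lay on chromosome 7, against 94.2% and 91.7% of run probes and 21.0% of all probes. Of these isolated probes 32.4% of ES replicate 1 were positive on ES replicate 2, against 2.09% of all probes, and 18.9% of ES replicate 2 on ES replicate 1, against 1.53%. Input averaging at least 2 log2 units over the median was found at 34.8% and 59.8% of them, and at 8.59% of all probes.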
